A study of Mus musculus with 12 samples.

Results

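The epicardial markers and simple keratins were a list of 10 mouse genes, chosen by symbol, out of 55416 genes in the deposited table. They comprised the epicardial transcription factors Wt1 and Tbx18, the mesothelial surface proteins Upk3b, Msln and Muc16, the retinoic acid enzyme Aldh1a2, the type II keratins Krt7 and Krt8, and the type I keratins Krt18 and Krt19. Each symbol matched 1 row, and all 10 passed the filter on low values. RNA had been sequenced from neonatal mouse cardiomyocytes in 4 groups of 3 libraries. PE knockdown cells received phenylephrine, an alpha1-adrenergic agonist that makes cardiomyocytes grow, for 24 hours together with a GapmeR against lincRNA-p21. A GapmeR is an antisense oligonucleotide that lets RNase H cut its target RNA. PE control cells received phenylephrine with a negative control GapmeR. PBS knockdown cells received PBS with the GapmeR against lincRNA-p21, and PBS control cells received PBS with the negative control GapmeR. All 4 groups therefore carried a GapmeR. The labels name no strain, sex, dose or number of animals, and no purification step. They also do not say that the 3 libraries of a group came from separate cultures or animals, so p-values measure the spread between these libraries, which may be technical.

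The epicardium is the mesothelial sheet that covers the heart. In the embryo it expresses Wt1 and Tbx18, makes retinoic acid through Aldh1a2, and gives rise to fibroblasts and mural cells after an epithelial-to-mesenchymal transition. Mesothelial cells also build their cytoskeleton from simple keratins, intermediate filaments in which a type I chain (Krt18 or Krt19) pairs with a type II chain (Krt7 or Krt8). Cardiomyocytes rely mainly on desmin instead.

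The deposited values were gene counts that had been scaled by a single factor for each library, and recovered totals ran between 21325485 and 22139681 reads per library. The target of the GapmeR, Trp53cor1 (lincRNA-p21), had values of 8.56, 9.97 and 8.93 in PE knockdown, 56.0, 34.0 and 34.7 in PE control, 12.7, 22.6 and 10.1 in PBS knockdown, and 59.8, 70.6 and 63.2 in PBS control libraries. It was 78.0% lower with its GapmeR in PE and 76.6% lower in PBS, and all 6 knockdown libraries were below all 6 control libraries. All 10 cardiomyocyte markers had a mean of at least 10 in each group. Mitochondrial reads made up 4.33% to 10.7% of a library. PE knockdown replicate 1, PBS knockdown replicate 2 and PBS control replicate 2 stood apart from the other libraries of their groups. A chi-square of recovered reads over genes, per degree of freedom, was 20.1 to 47.9 for pairs with 1 of them and 2.31 to 11.3 for the other pairs of their groups; PE control pairs gave 8.52 to 20.7.

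A second trio of libraries stood apart in genes of other epithelia, which bears on the keratins. The summed value of 10 such markers was 275, 287 and 279.9 in PE knockdown, 377, 229.5 and 226 in PE control, 362, 339 and 111 in PBS knockdown, and 183, 165 and 142 in PBS control libraries. PE control replicate 1 and PBS knockdown replicates 1 and 2 were thus high. Cdh1, the epithelial cadherin, had values of 111 in PE control replicate 1, 136 and 127 in PBS knockdown replicates 1 and 2, and 39.4 in PBS knockdown replicate 3. Sftpc, the surfactant protein C of lung epithelium, had values of 28.0, 81.6, 56.9 and 4.58 in the same 4 libraries. Krt5, the basal-cell keratin, was listed at 0 in all 6 PBS libraries. Calls of the 10 genes that changed when these 3 libraries were left out are given below both ways.

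**Figure D1:**
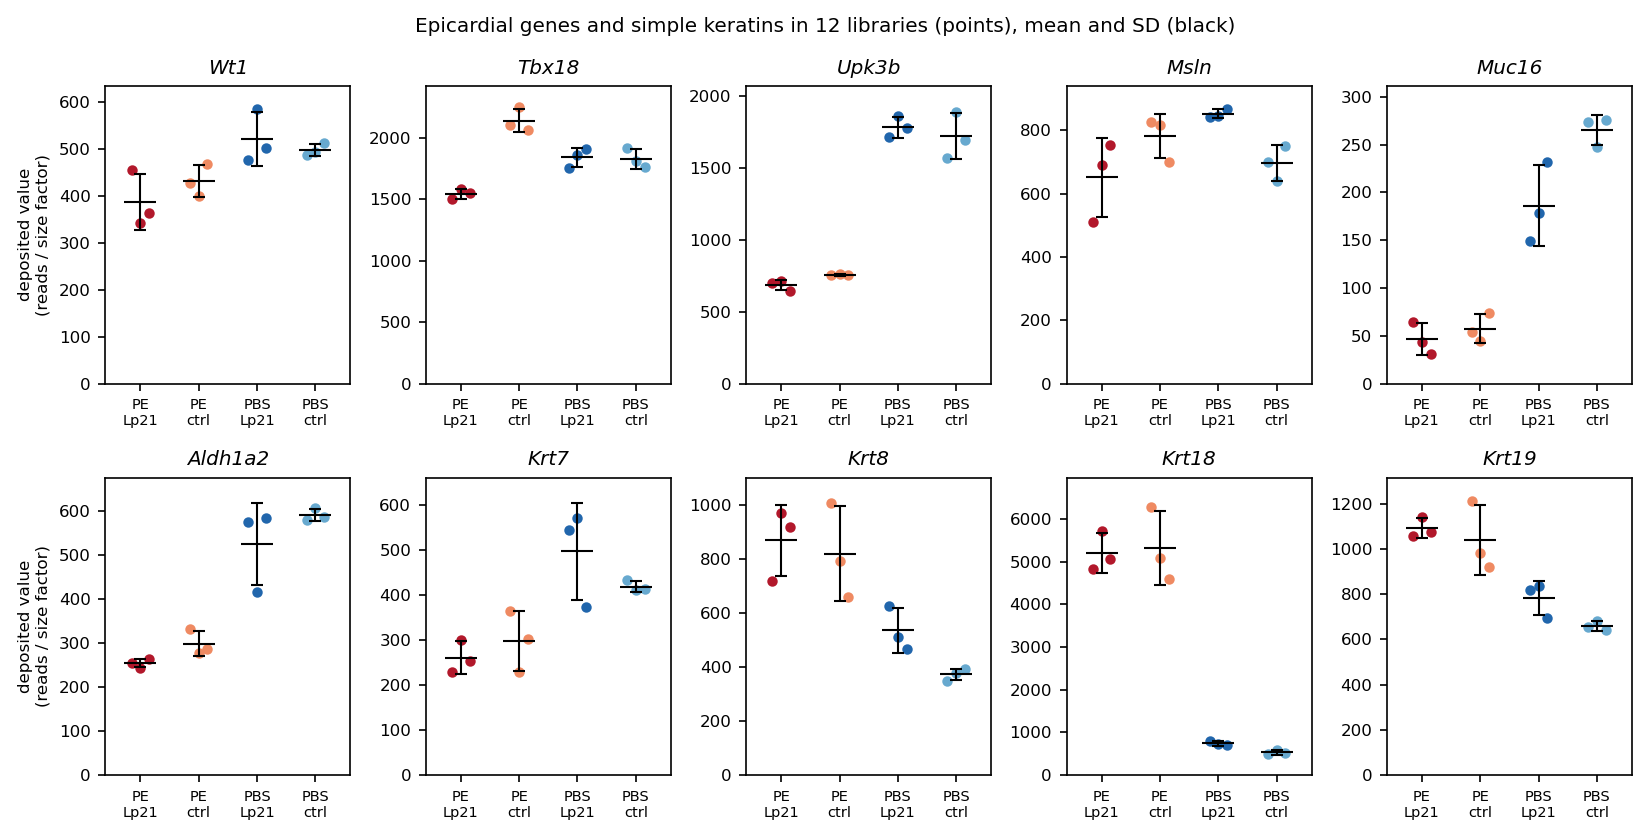
Deposited values (reads divided by the size factor, linear axis from 0) of the 10 genes in 12 libraries. Points are libraries, black bars the mean and SD of 3 libraries; Lp21 is the lincRNA-p21 GapmeR and ctrl the negative control GapmeR. Krt18 stood between 4593 and 6283 in the 6 PE libraries and between 484 and 799 in the 6 PBS libraries. Wt1, Upk3b, Muc16, Aldh1a2 and Krt7 were lower in every PE library than in every PBS library.

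The order of the 10 genes by level, as values per kilobase of exon, differed between PE and PBS libraries. Krt18 headed both PE groups, at 3620.3 ± 321 per kilobase in PE knockdown and 3702 ± 605 in PE control libraries (SD, n = 3 each), with Krt19 second at 588 ± 23.7 and 559 ± 82.9. In PBS knockdown libraries Krt18 and Upk3b headed the list at 514 ± 37.7 and 506 ± 20.8 per kilobase, and their library values overlapped. Upk3b alone headed PBS control libraries at 488 ± 45.5 per kilobase, followed by Tbx18 at 388 ± 17.3, Krt18 at 372 ± 39.7 and Krt19 at 354.5 ± 11.5. Neighbours from Tbx18 to Krt19 in that order overlapped. Muc16 was last in every group, at 1.76 ± 0.640, 2.18 ± 0.566, 7.07 ± 1.60 and 10.1 ± 0.593 per kilobase in PE knockdown, PE control, PBS knockdown and PBS control libraries. Its gene model has the most exon bases of the list, 26350 against 1437 in Krt18. Exon lengths, and the positions given below, are of GENCODE mouse release 21. That release holds an earlier ID version of each listed gene than the deposited one.

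Krt18 (ENSMUSG00000023043.8) lies at chr15:102028180-102032027 on the plus strand of GRCm38, and its partner gene Krt8 (ENSMUSG00000049382.11) at chr15:101996698-102004482 on the minus strand. The 2 genes point away from each other across 23697 bases, and Krt7 (ENSMUSG00000023039.18, chr15:101411043-101430313, plus strand) lies 566 kilobases further along. Krt19 (ENSMUSG00000020911.15) is on another chromosome, at chr11:100140810-100148665 on the minus strand. The promoters of Krt18 and Krt8 are shown because both genes had higher values in PE libraries from starts that face opposite ways. The Krt18 stretch is the 214 bases chr15:102027966-102028179 on the plus strand, and the Krt8 stretch the 110 bases chr15:102004483-102004592 on the minus strand. Both are upstream bases outside the annotated gene, from RefSeq promoters on GRCm38.p6.
Krt18: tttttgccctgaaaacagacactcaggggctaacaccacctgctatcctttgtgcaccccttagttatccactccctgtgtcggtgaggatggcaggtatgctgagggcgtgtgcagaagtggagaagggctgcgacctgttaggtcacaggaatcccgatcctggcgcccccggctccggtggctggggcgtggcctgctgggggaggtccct
Krt8: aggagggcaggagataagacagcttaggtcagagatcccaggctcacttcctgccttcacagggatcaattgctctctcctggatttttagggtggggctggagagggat
A set of 5 motifs was searched in the 250 bases upstream of the RefSeq start of the 7 listed genes with an entry, and none occurred upstream of Krt18 or Krt8. They were TGANTCA (AP-1, both strands), GGAATG (TEAD, both strands), GGGCGG (GC box, both strands), the CArG box of serum response factor (both strands), and TATAAA (sense strand, last 50 bases). Among all 32851 promoters of the table, 6.75%, 12.6%, 32.7%, 1.47% and 2.63% held these motifs, in the order given. Krt7 held GGGCGG or its reverse complement at 4 places, between 141 and 19 bases upstream of its RefSeq start. The searched window of Krt7 lies wholly inside its annotated gene. For Krt18 and Krt8 it reaches into the annotated gene beyond the bases shown.

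With phenylephrine, 3 of the 4 simple keratins rose in knockdown cells and 1 fell, and Krt18 moved far more than the others. By the same test 13.4% of all tested genes rose and 14.0% fell. Krt18, the main type I chain of simple epithelia, had values of 4829.7, 5718 and 5059.9 in PE knockdown libraries, against 799, 726 and 693 in PBS knockdown libraries. The 2 groups did not overlap, and the means of 5202 ± 461 and 739 ± 54.1 (SD, n = 3 each) differed 7.04-fold. On the log2(value + 1) scale the difference was 2.81 ± 0.12 (SE; limma adjusted p = 6.10e-12). In control cells, whose phenylephrine effect was known when the genes were listed and is therefore described by values without p-values, Krt18 had values of 6283, 5085 and 4593 in PE libraries, against 484, 596 and 523 in PBS libraries, a 9.96-fold difference of means. Leaving out the 3 libraries high in other epithelial markers gave log2 differences of 2.90 in knockdown and 3.18 in control cells.

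Krt8, the type II chain that pairs with Krt18, had values of 719, 969 and 919 in PE knockdown libraries, against 627, 512 and 466 in PBS knockdown libraries. Each PE library was above each PBS library. The means of 869 ± 132 and 535 ± 83.2 differed by a log2 change of 0.70 ± 0.15 (limma adjusted p = 0.0014), and by 0.89 without the 3 libraries high in epithelial markers (adjusted p = 0.0019). In control cells Krt8 averaged 819.6 ± 175 in PE and 372 ± 21.9 in PBS libraries, a log2 difference of 1.12 ± 0.15. PE control replicate 1, with 1006, was the highest of all 12 libraries. Reads of Krt8 could be shared with the processed pseudogene Krt8-ps, whose mean value was 2.19.

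Krt19, a type I keratin found in mesothelium and ductal epithelia, had values of 1059, 1141 and 1074 in PE knockdown libraries, against 819, 833 and 695 in PBS knockdown libraries. These did not overlap either, and the log2 change was 0.48 ± 0.11 (limma adjusted p = 0.0025). In control cells Krt19 averaged 1038 ± 154 in PE and 658 ± 21.4 in PBS libraries, a log2 difference of 0.65 ± 0.11.

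Krt7, the type II keratin of mesothelium and ductal epithelia, went the other way. Its values were 228, 300.0 and 254 in PE knockdown libraries, against 545, 571 and 373 in PBS knockdown libraries, so that each PE library was below each PBS library. The log2 change was -0.91 ± 0.17 (limma adjusted p = 4.03e-04). The 2 highest PBS knockdown values belonged to replicates 1 and 2, the libraries high in Cdh1 and Sftpc. Without these and PE control replicate 1, the log2 change was -0.52 and did not pass the test (adjusted p = 0.0616), with a single PBS knockdown library left that was assumed to vary like the other groups. In control cells Krt7 averaged 298 ± 67.4 in PE and 418 ± 12.4 in PBS libraries, a log2 difference of -0.51 ± 0.17, which was -0.67 without PE control replicate 1. The part of other epithelial cells in these keratin values was not tested further.

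Because Krt8 moved less than Krt18 and Krt7 moved down, the balance of type I to type II RNA among the listed keratins differed between PE and PBS. Krt80, a type II keratin outside the list, is not in these ratios. It averaged 845 ± 132 in PE knockdown and 172 ± 19.3 in PBS knockdown libraries. Per kilobase of exon, Krt18 RNA was 9.15, 8.04 and 7.50 times Krt8 RNA in PE knockdown libraries, and 1.73, 1.93 and 2.03 times Krt8 RNA in PBS knockdown libraries. The ratio was 4.33-fold higher in PE, with no overlap and a two-sided exact permutation p of 0.1, the smallest that 3 against 3 libraries allow. Krt19 over Krt7 averaged 16.1 ± 1.59 in PE knockdown and 6.11 ± 0.842 in PBS knockdown libraries, 2.63-fold higher in PE (exact permutation p = 0.1). Both type I genes together over both type II genes averaged 8.83 ± 0.897 in PE knockdown, 9.30 ± 0.423 in PE control, 2.75 ± 0.222 in PBS knockdown and 2.91 ± 0.185 in PBS control libraries. In PE control replicate 1, high in epithelial markers, the ratio of Krt18 to Krt8 was 8.51, beside 8.73 and 9.50 in the other 2 libraries of that group.

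**Figure D2:**
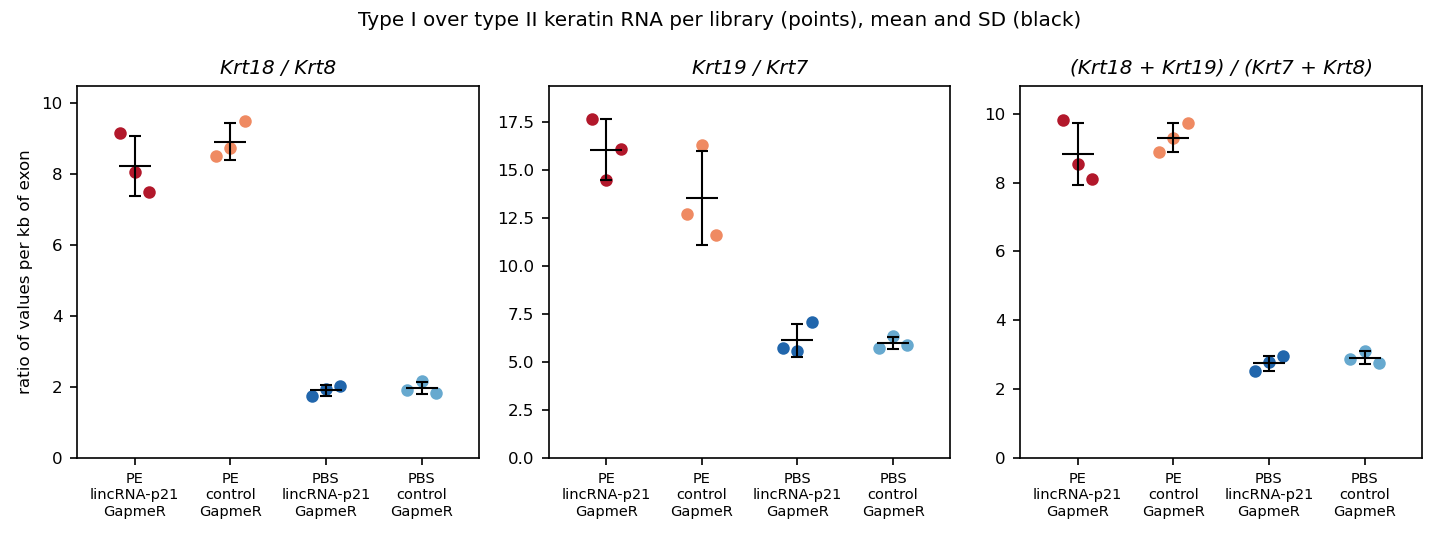
Ratios of type I (Krt18, Krt19) to type II (Krt7, Krt8) keratin RNA, each gene per kilobase of exon, on linear axes from 0. Points are libraries, black bars the mean and SD of 3 libraries. The ratio of Krt18 to Krt8 was 7.50 to 9.50 in the 6 PE libraries and 1.73 to 2.15 in the 6 PBS libraries.

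The epicardial and mesothelial genes fell with phenylephrine in knockdown cells, by amounts that ranged widely. Upk3b (ENSMUSG00000042985.8, chr5:136038496-136046487, plus strand), a uroplakin carried by mesothelial cells, had values of 697, 712 and 643 in PE knockdown libraries, against 1715, 1862 and 1781 in PBS knockdown libraries. The groups were far apart, with means of 684 ± 36.0 and 1786 ± 73.4 and a log2 change of -1.38 ± 0.09 (limma adjusted p = 2.57e-09). In control cells Upk3b averaged 757 ± 4.59 in PE and 1722 ± 161 in PBS libraries, a log2 difference of -1.18 ± 0.09. Muc16 (ENSMUSG00000109564.2, chr9:18495455-18674530, minus strand), a large membrane mucin that binds mesothelin, had values of 64.2, 43.9 and 30.8 in PE knockdown libraries, against 149, 178 and 232 in PBS knockdown libraries. Its log2 change of -2.02 ± 0.23 (limma adjusted p = 2.31e-06) was the deepest of the 10 genes. In control cells Muc16 averaged 57.4 ± 14.9 in PE and 265 ± 15.6 in PBS libraries, a log2 difference of -2.22 ± 0.23.

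The upstream sequences of Upk3b and Muc16 are shown because these mesothelial genes fell together. The Upk3b stretch is the 250 bases chr5:136038246-136038495 on the plus strand and the Muc16 stretch the 250 bases chr9:18674604-18674853 on the minus strand (RefSeq, GRCm38.p6).
Upk3b: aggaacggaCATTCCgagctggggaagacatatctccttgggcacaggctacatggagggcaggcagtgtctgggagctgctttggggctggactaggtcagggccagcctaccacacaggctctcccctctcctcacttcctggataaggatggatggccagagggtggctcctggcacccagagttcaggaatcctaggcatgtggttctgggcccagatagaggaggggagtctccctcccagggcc
Muc16: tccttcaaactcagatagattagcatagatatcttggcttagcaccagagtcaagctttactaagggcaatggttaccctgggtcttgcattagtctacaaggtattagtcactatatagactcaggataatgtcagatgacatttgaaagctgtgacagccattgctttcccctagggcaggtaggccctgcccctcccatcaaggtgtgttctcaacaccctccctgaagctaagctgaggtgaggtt
Capitals mark CATTCC, the reverse complement of GGAATG, from 241 to 236 bases upstream of the Upk3b start. It was the only match to any of the 5 motifs in these 2 stretches, and 12.6% of all promoters held GGAATG on either strand. Neither the Aldh1a2 nor the Tbx18 promoter held a match, which says only that these letters are not in that window.

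Aldh1a2 (ENSMUSG00000013584.6, chr9:71215789-71296243, plus strand), which makes retinoic acid in the epicardium, had values of 255, 244 and 264 in PE knockdown libraries, against 575, 417 and 584 in PBS knockdown libraries. PBS knockdown replicate 2 was the lowest of its group yet above each PE library. The log2 change was -1.03 ± 0.13 (limma adjusted p = 5.52e-06). In control cells Aldh1a2 averaged 299 ± 29.1 in PE and 591 ± 13.5 in PBS libraries, a log2 difference of -0.99 ± 0.13.

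Msln, Wt1 and Tbx18 fell less, and their calls depended on single libraries. Msln (ENSMUSG00000063011.8, chr17:25748613-25754378, minus strand), the mesothelin that binds Muc16, had values of 511, 689.8 and 753 in PE knockdown libraries, against 843, 847 and 869 in PBS knockdown libraries. Its log2 change of -0.41 ± 0.13 (limma adjusted p = 0.0202) came to -0.24 without PE knockdown replicate 1 (adjusted p = 0.1320) and also failed the test without PBS knockdown replicate 3 (adjusted p = 0.0590). In control cells the Msln libraries overlapped, at 827, 817 and 701 in PE and 700.2, 639 and 750.4 in PBS. Wt1 (ENSMUSG00000016458.16, chr2:105126529-105173616, plus strand), the zinc-finger factor that marks the epicardium, had values of 454, 342 and 363 in PE knockdown libraries, against 475, 585 and 502 in PBS knockdown libraries. Its log2 change was -0.43 ± 0.12 (limma adjusted p = 0.0110), and -0.35 without PE knockdown replicate 2 (adjusted p = 0.0721). In control cells Wt1 averaged 431 ± 34.4 in PE and 497 ± 13.5 in PBS libraries, a log2 difference of -0.21 ± 0.12.

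Tbx18 (ENSMUSG00000032419.9, chr9:87702800-87731260, minus strand), a T-box factor of the epicardium and the sinus node, had values of 1505, 1584 and 1551 in PE knockdown, 2107, 2249.6 and 2068 in PE control, 1759.8, 1858 and 1911 in PBS knockdown, and 1920.4, 1812 and 1760.3 in PBS control libraries. In the deposited values it was the only one of the 10 genes below PBS with PE in knockdown cells and above PBS with PE in control cells with no overlap in either. The log2 change in knockdown cells was -0.25 ± 0.09 (limma adjusted p = 0.0355), and the difference in control cells was 0.23 ± 0.09. With values rescaled to equal library totals, the difference in control cells was only 0.068. The call in knockdown cells was lost in 10 of 23 alternatives, where adjusted p reached 0.1179. Of these, 6 left out 1 library each: PE knockdown replicate 1, 2 or 3 (0.0860, 0.0693 and 0.0860), PBS knockdown replicate 3 (0.1113), PBS control replicate 3 (0.0515) or PE control replicate 2 (0.0501). Tbx18 shares 970 exon bases with the opposite-strand gene D030062O11Rik, whose mean value was 16.9, and the strand setting of the counting is not given in the sources used here.

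All 10 genes passed the test for phenylephrine in knockdown cells, 3 higher and 7 lower, where 27.4% of the 21799 genes tested did (13.4% higher and 14.0% lower). All 10 also had PE knockdown and PBS knockdown libraries that did not overlap, as did 38.7% of tested genes. Without the 3 libraries high in other epithelial markers, 6 of the 10 passed: Upk3b, Muc16, Aldh1a2, Krt8, Krt18 and Krt19. Besides Krt7, the genes that no longer passed were Wt1 (-0.39, adjusted p = 0.1212), Tbx18 (-0.31, 0.0651) and Msln (-0.43, 0.1258). In control cells the same fit put 7 of the 10 past the threshold, beside 25.4% of all genes, and 9 had PE and PBS libraries that did not overlap, beside 41.7%. That contrast was in view when the genes were listed, and nothing is read from either count. The counts in knockdown cells compare other libraries with the same drug, and the fit pools their spread with that of the control cells. They are therefore not independent of how the genes were chosen, and are given as a description. With only the 6 libraries compared, Tbx18 (limma adjusted p = 0.1179) and Msln (0.0629) did not pass. Rescaling the values to equal library totals gave a median log2 change of -0.15 for genes with a mean of at least 50 in knockdown cells, against -0.0037 as deposited, and no called gene of the 10 changed direction. The share of calls that were lower was 69.2% after rescaling and 51.1% as deposited. In bulk libraries such as these, fewer cells of a type and less RNA per cell cannot be told apart.

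**Figure D3:**
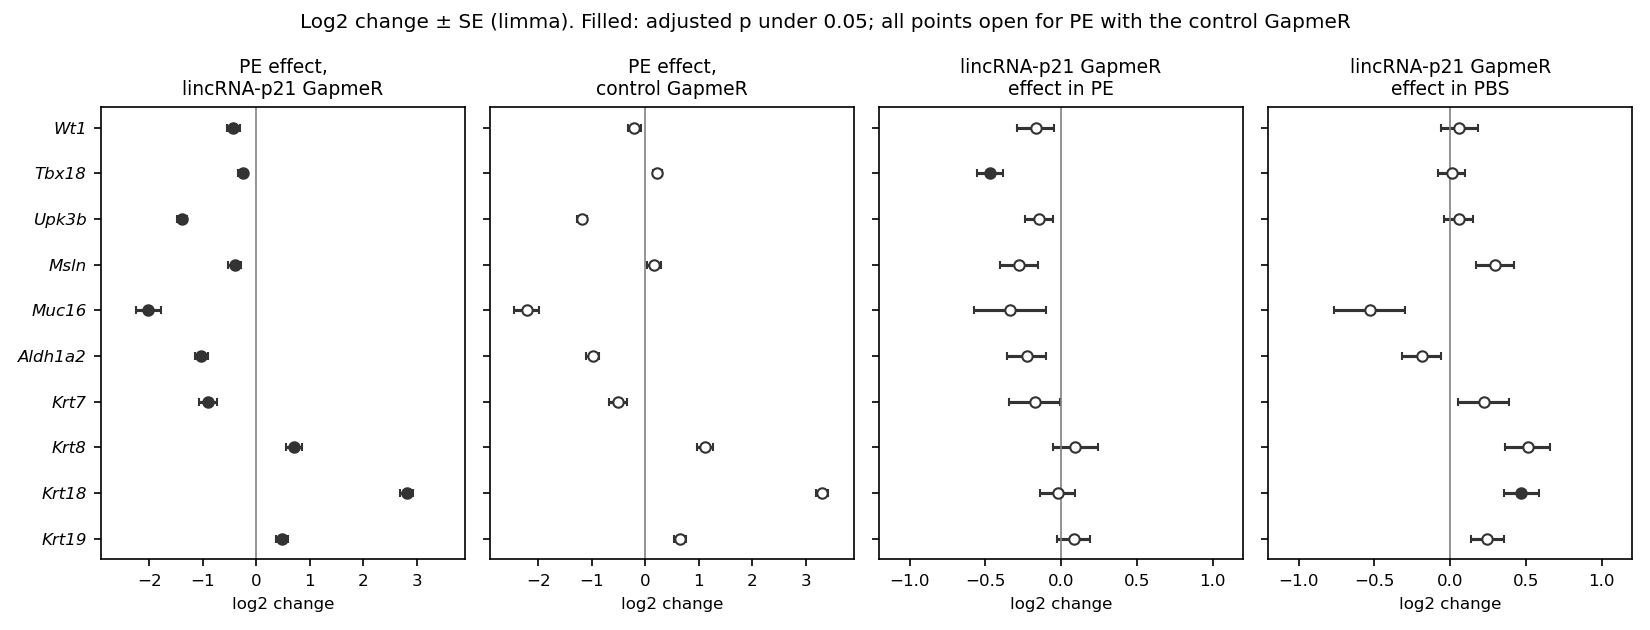
Log2 change (limma on log2(value + 1), x axis) of each gene with its SE, for phenylephrine against PBS in knockdown and in control cells, and for the lincRNA-p21 GapmeR against the control GapmeR in PE and in PBS; 3 libraries a group. Filled points passed an adjusted p of 0.05. Points for phenylephrine in control cells are all hollow, since that contrast was in view when the genes were listed. Krt18 lay at 2.81 and 3.31 in the phenylephrine panels, and only Tbx18 (-0.47, in PE) and Krt18 (0.47, in PBS) were filled in the GapmeR panels.

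Knockdown of lincRNA-p21 in phenylephrine-treated cells lowered Tbx18 and no other gene of the list past the threshold. The values of 1505, 1584 and 1551 in PE knockdown and 2107, 2249.6 and 2068 in PE control libraries did not overlap. The log2 change was -0.47 ± 0.09 (limma adjusted p = 0.0010), and it passed in all 23 alternatives, with adjusted p up to 0.0122. That 1 call among 10 genes stands beside 11.7% of all tested genes, a share close to it. Of all calls in this contrast 60.9% were lower, and 42.3% after rescaling to equal totals.

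Upk3b and Aldh1a2 had library values that did not overlap between the GapmeRs in PE, as did 30.5% of tested genes, but neither passed. Upk3b averaged 684 ± 36.0 in PE knockdown and 757 ± 4.59 in PE control libraries (log2 change -0.15 ± 0.09, limma adjusted p = 0.3905). Aldh1a2 averaged 254 ± 9.93 in PE knockdown and 299 ± 29.1 in PE control libraries (-0.23 ± 0.13, adjusted p = 0.3129). For Krt18 the GapmeRs gave 5202 ± 461 in PE knockdown and 5319.9 ± 869 in PE control libraries, and the 95% interval of the fold ran from 0.829 to 1.17. The other 6 genes had log2 changes between -0.34 (Muc16) and 0.09 (Krt8), with adjusted p of 0.1848 or more. Wt1 and Muc16 passed only when the 3 libraries far from their groups were left out (-0.29, adjusted p = 0.0324, and -0.60, adjusted p = 0.0427).

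In PBS, Krt18 was the 1 gene of the 10 that passed an adjusted p of 0.05 for knockdown of lincRNA-p21, and it was higher. Krt18 had values of 799, 726 and 693 in PBS knockdown libraries, against 484, 596 and 523 in PBS control libraries, with no overlap. The log2 change was 0.47 ± 0.12 (limma adjusted p = 0.0247), and the 95% interval of the fold ran from 1.17 to 1.64. The PBS control libraries were also part of the phenylephrine contrast known when the genes were listed. The p-value and interval are therefore not independent of that choice. This call rested on few libraries: adjusted p was 0.0799 without PBS knockdown replicate 1, 0.1341 without PBS control replicate 1, 0.0952 without PBS control replicate 3 and 0.0666 with only the 6 PBS libraries. PBS knockdown replicate 3, which had low epithelial markers, had the value 693, and the highest PBS control library had 596. The part of other epithelial cells in this change was not tested. Without the 3 libraries high in those markers the log2 change was 0.38 and did not pass (adjusted p = 0.2880).

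Krt8 showed a change of like size in PBS that did not pass, at 535 ± 83.2 in PBS knockdown and 372 ± 21.9 in PBS control libraries (log2 change 0.51 ± 0.15, limma adjusted p = 0.0567). It passed in 7 of 23 alternatives, but without the 3 libraries high in epithelial markers its log2 change was 0.32 (adjusted p = 0.5492). Its lowest PBS knockdown library, at 466, was above the highest PBS control library, at 391. Krt19 and Msln also did not overlap, with log2 changes of 0.25 ± 0.11 and 0.29 ± 0.13 and adjusted p of 0.2484 and 0.2192. Muc16 was lower in each PBS knockdown library, at 186 ± 42.2 against 265 ± 15.6 in PBS control libraries, and did not pass (-0.53 ± 0.23, adjusted p = 0.2396). Without the same 3 libraries the log2 changes were 0.08 for Krt19 (adjusted p = 0.8806), 0.32 for Msln (0.6098) and -0.19 for Muc16 (0.9101). These 5 non-overlapping genes compare with 22.0% of tested genes, and the 1 call with 4.57% (1.36% higher and 3.21% lower). Of all calls here 70.2% were lower, and 51.0% after rescaling to equal totals.

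Whether the phenylephrine effect differed between the GapmeRs was tested by the interaction, which shares the libraries of both phenylephrine contrasts. It subtracts the effect in control cells, which was known when the genes were listed. Counts and p-values of the 10 genes are therefore not independent of that choice. By limma 0 of the 10 genes passed, beside 0.0550% of all tested genes. At an unadjusted p of 0.05, 3 of the 10 were past the threshold, Tbx18, Msln and Krt18, beside 9.83% of all tested genes. edgeR called 0 of the 10 under both of its normalizations, and DESeq2 called 1, Tbx18 (adjusted p = 0.0191). The interaction log2 change was -0.48 ± 0.12 for Tbx18 (limma adjusted p = 0.1796), -0.57 ± 0.18 for Msln (0.3259) and -0.49 ± 0.17 for Krt18 (0.3580). A larger phenylephrine effect on Krt18 in control cells, 9.96-fold beside 7.04-fold, was thus not shown to differ.

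Some genes outside the list had profiles over the 12 libraries close to those of single members. Likeness was the root mean square difference of log2(value + 1) profiles centred on their own means, among 12113 genes with a mean of at least 50, and is given as a description. Nearest to Krt18 were Csf3, a granulocyte growth factor (0.216), Hbegf, an EGF receptor ligand (0.253), and Ptgs2, the inducible cyclooxygenase (0.275). Ptgs2 averaged 651 ± 20.3 in PE knockdown, 663 ± 66.1 in PE control, 64.0 ± 4.52 in PBS knockdown and 62.9 ± 4.02 in PBS control libraries. Nearest to Krt19 were Fam104a (0.049), the helicase Ruvbl2 (0.063) and the importin Ipo4 (0.072). Upk3b lay nearest to Mmab (0.092), the glutathione transferase Gstm1 (0.0999) and Tcf21 (0.105), a transcription factor of epicardium and cardiac fibroblasts. Tcf21 averaged 366 ± 32.8 in PE knockdown, 419 ± 17.3 in PE control, 1056 ± 135 in PBS knockdown and 1019 ± 80.3 in PBS control libraries. Aldh1a2 lay nearest to Txndc16 (0.101), Gprasp1 (0.125) and Tnfaip8 (0.139).

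Other genes of epicardium and mesothelium mostly fell with phenylephrine. Of 18 such genes outside the list 16 were tested. In PE knockdown against PBS knockdown libraries 13 fell and 0 rose (limma), beside 14.0% lower and 13.4% higher among all tested genes. The median log2 change was -0.87 beside 0.0048 for all tested genes. Nkain4 averaged 20.7 ± 3.65 in PE knockdown and 117 ± 12.1 in PBS knockdown libraries (-2.45 ± 0.21, adjusted p = 6.78e-08). Cldn15, a claudin, averaged 63.6 ± 19.8 in PE knockdown and 295 ± 49.5 in PBS knockdown libraries (-2.23 ± 0.18, adjusted p = 3.20e-08). Rspo1, a secreted enhancer of Wnt signals, and Gpm6a, a membrane glycoprotein, fell by 1.74 and 1.64 on the log2 scale. The 3 that did not pass, named after their values were seen, were Upk1b (-0.039 ± 0.10), Pdpn (0.27 ± 0.13) and Prg4 (0.96 ± 0.40). The uroplakin Upk1b had values of 955, 926 and 967 in PE knockdown libraries, against 1036, 888 and 1008 in PBS knockdown libraries, which overlap. Without the 3 libraries high in epithelial markers 12 of the 16 fell. With knockdown in PE, Gpm6a fell by 0.96 (adjusted p = 3.51e-05), Sema3d, a guidance cue of the epicardium, fell by 0.39 (adjusted p = 0.0349) and Efemp1 rose by 0.39 (adjusted p = 0.0313). The other 13 did not pass. Among all tested genes 7.14% were called lower and 4.57% higher in this contrast. Without any single PE library 1 of the 16 was lower and 0 were higher. Leaving out the 3 libraries far from their groups gave 6 lower, while calls among all genes, in either direction, went from 2553 to 4664.

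In each group 10 of 15 further keratins had a mean under 10. The 9 that were tested held 3 that rose and 1 that fell with phenylephrine in knockdown cells, beside 13.4% and 14.0% of all tested genes. Krt80, a type II keratin, averaged 845 ± 132 in PE knockdown and 172 ± 19.3 in PBS knockdown libraries (log2 change 2.28 ± 0.14, limma adjusted p = 4.85e-10). Krt17 and Krt23, both type I, averaged 13.8 ± 2.76 and 6.76 ± 1.32 in PE knockdown libraries and 3.64 ± 1.85 and 1.51 ± 1.04 in PBS knockdown libraries. They passed with adjusted p of 0.0059 and 0.0408, at levels of a few reads, and edgeR and DESeq2 called 2 of the 9 higher. Without the 3 libraries high in epithelial markers 1 rose. Krt14, the basal-cell type I chain, averaged 54.0 ± 11.9 in PE knockdown and 122 ± 14.1 in PBS knockdown libraries (-1.17 ± 0.19, adjusted p = 8.70e-05). Krt80 was also higher with knockdown in PE, at 845 ± 132 in PE knockdown and 600.3 ± 87.1 in PE control libraries (0.49 ± 0.14, adjusted p = 0.0237), a call lost without PE knockdown replicate 1 or 2 or PE control replicate 2 or 3. Among 13 other intermediate filament genes and partners, 4 rose and 2 fell with phenylephrine in knockdown cells, beside 13.4% higher and 14.0% lower among all tested genes. After rescaling to equal totals 4 fell, and without PBS knockdown replicate 2 the count was 6 higher and 1 lower. Without PE knockdown replicate 2 the count was 4 higher and 1 lower. Synm, which encodes the synemin that joins desmin filaments, rose by 1.78 and Nes, which encodes nestin, by 1.10. The desmosomal linkers Ppl and Evpl fell by 1.14 and by 1.00.

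The retinoic acid pathway beyond Aldh1a2 was divided. Of 16 genes 15 were tested, 4 rose and 4 fell with phenylephrine in knockdown cells, with a median log2 change of -0.098. All tested genes had 13.4% higher and 14.0% lower. Without PBS knockdown replicate 3, 2 rose, and without the 3 libraries high in epithelial markers 2 rose and 2 fell. The retinoid-clearing enzyme Cyp26b1 averaged 69.8 ± 6.64 in PE knockdown and 29.4 ± 5.95 in PBS knockdown libraries (1.23 ± 0.22, limma adjusted p = 2.16e-04). The carriers Rbp4 and Crabp1 rose by 1.29 and 1.27. The receptor Stra6 rose by 1.70 at levels of 6.91 ± 4.47 in PE knockdown and 1.21 ± 0.521 in PBS knockdown libraries. In control cells Stra6 was not higher with PE, at 4.67 ± 1.28 in PE and 6.87 ± 4.39 in PBS libraries. The 4 genes that fell had smaller changes than these and are not named. With knockdown in PE, Cyp26b1 fell by 0.84 (adjusted p = 0.0136) and Aldh1a3, another retinal dehydrogenase, by 0.76 (adjusted p = 0.0439); neither passed without PE control replicate 2 or 3.

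Genes of the epicardial epithelial-to-mesenchymal transition were also divided by phenylephrine, with 3 of 15 higher and 5 lower in knockdown cells, beside 13.4% and 14.0% of all tested genes. Tgfbr3, Snai1 and Pdgfrb fell by 1.36, 1.35 and 1.24 on the log2 scale, and Acta2, the smooth muscle actin, rose by 1.10. With knockdown in PE 7 of the 15 fell and 0 rose (limma), with a median log2 change of -0.39 beside 0.013 for all tested genes, and 7.14% of tested genes were called lower. Without the 3 libraries far from their groups 12 of the 15 fell, but calls among all genes, in either direction, also went from 2553 to 4664. Cdh2, the N-cadherin that also joins cardiomyocytes, averaged 10653 ± 1559 in PE knockdown and 22936 ± 1308 in PE control libraries (-1.11 ± 0.12, adjusted p = 1.70e-06). Tgfbr3, Itga4 and Pdgfrb fell by 0.72, 0.69 and 0.69.

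**Figure D4:**
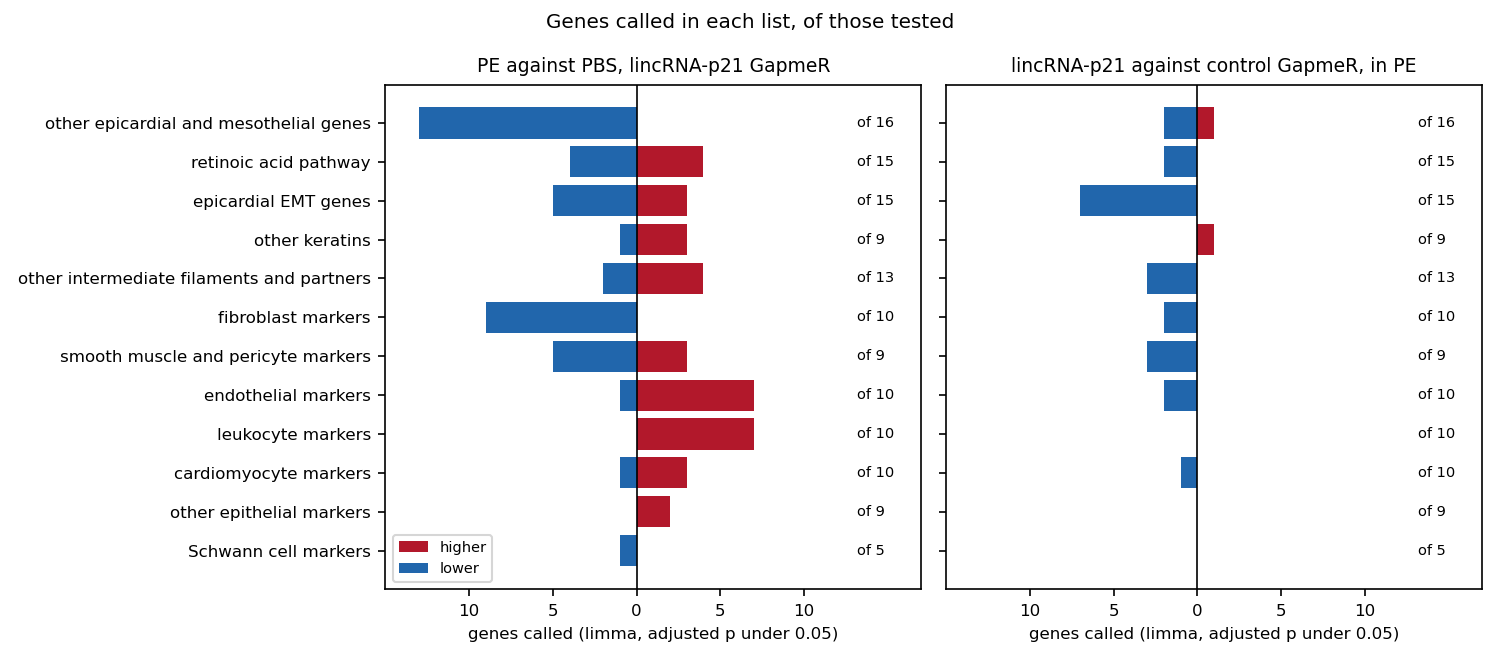
Number of genes called higher (red, right) or lower (blue, left) in each list of related genes and cell type markers, out of those tested (number at right; limma, adjusted p under 0.05), for phenylephrine in knockdown cells and for the lincRNA-p21 GapmeR in PE. Of the 16 other epicardial and mesothelial genes tested 13 were lower with phenylephrine, as were 9 of 10 fibroblast markers, beside 14.0% of all tested genes.

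Among markers of neighbouring cell types, those of fibroblasts fell as the epicardial genes did, while most endothelial and leukocyte markers rose. With phenylephrine in knockdown cells 9 of 10 fibroblast markers fell and 0 rose, 1 of them the Tcf21 that is also on the epicardial list. Their summed value ran from 34844 to 38797 in PE knockdown, 42457 to 46509 in PE control, 66927 to 79467 in PBS knockdown and 73418 to 79304 in PBS control libraries, and none was at 0. Lum and Col3a1, which encode matrix proteins, fell by 2.40 and 2.18. Mural markers were split, with 5 of 9 smooth muscle and pericyte genes lower and 3 higher. Of 10 endothelial markers 7 rose and 1 fell, and of 10 leukocyte markers 7 rose and 0 fell. Among 10 cardiomyocyte markers 3 rose and 1 fell, and of 5 tested Schwann cell markers 1 fell. These counts stand beside 13.4% higher and 14.0% lower among all tested genes, a share near that of the cardiomyocyte and Schwann cell markers that fell. Of 9 other epithelial markers tested 2 rose, the claudins Cldn3 (51.4 ± 4.17 in PE knockdown and 16.0 ± 5.10 in PBS knockdown libraries) and Cldn4 (94.3 ± 2.97 in PE knockdown and 47.1 ± 29.5 in PBS knockdown libraries), but without PBS knockdown replicate 3 1 rose and 2 fell. With knockdown in PE, 0 to 3 markers of each cell type were called, all of them lower, beside 7.14% of all tested genes. Such counts changed with the setting: 1 cardiomyocyte marker was lower by limma, 4 by DESeq2 and by edgeR under both normalizations, and 0 without any 1 of PE knockdown replicates 2 and 3 or the 3 PE control libraries. Without the 3 libraries far from their groups 5 cardiomyocyte, 5 fibroblast, 5 mural and 4 endothelial markers were lower. In that setting calls among all genes, in either direction, numbered 4664, against 2553 with every library, so 7.14% is not its share. The part of any of these cell types in the epicardial and keratin values was not tested.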

How the data were processed

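Polyadenylated RNA from 12 samples of neonatal mouse cardiomyocytes was extracted with TRIzol and sequenced as 100 bp read pairs, per the labels' protocols. The submitters' processing notes name STAR, SAMtools, featureCounts and GRCm38.p6; their versions, the annotation and the strand setting are not given in the sources used here. Each deposited signal value was a gene's count scaled by a single factor for its library: all values in all 12 columns became whole reads (tolerance 0.001) when the scaling was undone. Of 55416 gene IDs, 52083 had a symbol in GENCODE mouse release 21, the source of positions and exon lengths; 0 columns belonged to no sample.

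The main test was limma 3.58.1 in R 4.3.3 on log2(value + 1), a scale that understates changes of low genes, for genes with a mean of at least 1 (21799 genes). It fitted 4 group means to all 12 libraries with a trended prior, two-sided, with Benjamini-Hochberg adjustment over all tested genes and a threshold of 0.05. Recovered reads were also tested with edgeR 4.0.16 and DESeq2 1.42.0. The fitting code was tested on simulated data. Ratios were tested by exact permutation.

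The members and lists were chosen with earlier results of these data known, the phenylephrine effect in control cells among them, so its p-values are not used and only its count past the threshold is given. The knockdown contrasts and the interaction share libraries with it, so their p-values are not independent of that choice. Phenylephrine in knockdown cells is the same treatment in other libraries, but its p-values use a spread estimated from all 12 libraries. Named were the 10 genes throughout, up to 4 called genes of each other list with the largest change with phenylephrine in knockdown cells and with knockdown in PE, and the 3 genes nearest in profile to Krt18, Krt19, Upk3b and Aldh1a2.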

Additional observations from a re-analysis of the deposited data

How the results depend on the processing

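Over 23 alternatives, no called gene of the 10 changed direction. The 10 calls for phenylephrine in knockdown cells became 8 to 10 when 1 library was left out (4903 to 6134 genes in all, 5967 with every library), and 6 (3732 genes) without the 3 libraries high in other epithelial markers, an alternative chosen after seeing the data that leaves 1 PBS knockdown library. In control cells 1 library less gave 6 to 8 members and 4262 to 6552 genes. For knockdown in PE, 1 member was called without any 1 library, among 1673 to 3503 genes (2553 with all; 1673 without PE knockdown replicate 2), and 3 members and 4664 genes without the 3 libraries far from their groups. For knockdown in PBS, 1 library less gave 0 to 2 members and 517 to 1183 genes (997 with all; 558 without PBS control replicate 1 and 517 without replicate 3). There DESeq2, equal library totals and leaving out the 3 far libraries each called 2 members, and the 6 PBS libraries alone called 0 members and 534 genes. Leaving out the 3 far libraries gave 1859 genes there, and leaving out the 3 epithelial ones 268 genes and 0 members. For the interaction, 12 genes became 4 to 22 without 1 library, 124 with DESeq2, which called 1 member, and 144 without the 3 far libraries. The cause was not tested. Fits that left 1 library in a group assumed that it varied like the others. With the replicate number as a block, 5708 genes were called for phenylephrine in knockdown cells, 5171 in control cells, 2269 for knockdown in PE, 822 for knockdown in PBS and 12 for the interaction. The block ended the Tbx18 call in knockdown cells (adjusted p = 0.0570) and no other member's. Same-numbered libraries showed residual correlations between -0.435 and 0.409, above 0.1 in 4 of 18 pairs, so the numbers were not taken as pairs. Depth limited Muc16 most, with 30.8 to 276 normalised reads per library.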
